A study of Mus musculus with 10 samples.

Results

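Serine-arginine (SR) splicing factors are RNA-binding proteins that mark exons for the spliceosome. The 10 genes described here are Srsf1, Srsf2, Srsf3, Srsf4, Srsf5, Srsf6, Srsf7, Srsf9, Srsf10 and Srsf11, out of 37991 Ensembl identifiers in the deposited table. They were found by matching those identifiers to the GRCm38 annotation. The family was selected on the earlier observation, in these same FPKM values, that Srsf1 was lower with IL-17A in the libraries labelled Bcl10-/-, so Srsf1 in those libraries is a description without a test. All 10 genes passed the filter of a mean of at least 1 FPKM (sequenced fragments scaled by transcript length in kilobases and by the mapped fragments of the library) over the 10 libraries, as did 12054 genes in all. Srsf12, the remaining Srsf symbol looked up, lay between 0.132 and 0.277 FPKM and was not among them.

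RNA was sequenced from primary keratinocytes of mouse pups aged 4 to 5 days, carrying the Bcl10tm1Mak allele, and the study compared the response to the inflammatory cytokine IL-17A with and without BCL10, an adaptor in NF-kB signalling. The label Bcl10-/- stands for pups with no intact Bcl10 copy, and the label Bcl10+/- for their littermates with a single intact copy. All cells grew in collagen-treated wells in a serum-free medium, with calcium chloride at 0.05 mM, and IL-17A, the recombinant mouse protein at 200 ng/mL, was added for 5 h or left out. There were 2 Bcl10-/- libraries with IL-17A, 2 Bcl10-/- unstimulated, 3 Bcl10+/- with IL-17A and 3 Bcl10+/- unstimulated. Libraries of the same genotype and replicate number are called a culture below. The labels do not say whether numbers stand for separate pups, so p-values cover only the spread seen between libraries, part of which may be technical. No wild-type pups were included, and which part of Bcl10 the allele lacks is not stated in the labels.

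SR proteins carry an RNA recognition motif and a tail rich in arginine-serine repeats. SRPK and CLK kinases phosphorylate that tail, the importin Tnpo3 carries the phosphorylated protein into the nucleus, and the protein then binds exonic enhancers and recruits U1 and U2 factors to the splice sites. Several SR proteins limit their own amount by splicing a poison exon into their own transcript, which sends it to nonsense-mediated decay. SRSF1 has a further link to IL-17: in other cultured cells it has been tied to the decay of chemokine mRNAs, from which IL-17 signalling through TRAF5 releases them. The annotation lists 85 transcripts for the 10 genes, of which 29 are protein coding, 15 are nonsense-mediated decay transcripts spread over 9 genes, and 26 retain an intron. Values per transcript were not analysed here, so an FPKM below is the level of a gene with no split between its coding and decay forms.

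Promoter windows of 4 genes are shown because Srsf1 and Srsf2 had the widest differences between groups and because Srsf3 and Srsf7 had the most similar profiles over the 10 libraries. Each runs from 250 bases before to 50 bases after a RefSeq start site, the one nearest to the annotated start of the gene. That site need not equal the gene start given below, as for Srsf3. Windows are printed 5′ to 3′ on the gene's own strand, from the RefSeq table of GRCm38.p6. All 10 genes matched an entry in that table. Capitals mark CCAAT and GGGCGG, searched on both strands, so that a match on the opposite strand reads ATTGG or CCGCCC.
Srsf1 promoter, chr11:88047123-88047422, plus strand: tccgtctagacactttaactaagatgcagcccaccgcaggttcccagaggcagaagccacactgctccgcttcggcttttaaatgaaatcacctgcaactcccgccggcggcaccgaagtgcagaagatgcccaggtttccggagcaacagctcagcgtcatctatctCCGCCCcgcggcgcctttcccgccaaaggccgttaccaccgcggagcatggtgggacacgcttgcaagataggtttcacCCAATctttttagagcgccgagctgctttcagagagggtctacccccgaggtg
Srsf2 promoter, chr11:116853045-116853344, minus strand: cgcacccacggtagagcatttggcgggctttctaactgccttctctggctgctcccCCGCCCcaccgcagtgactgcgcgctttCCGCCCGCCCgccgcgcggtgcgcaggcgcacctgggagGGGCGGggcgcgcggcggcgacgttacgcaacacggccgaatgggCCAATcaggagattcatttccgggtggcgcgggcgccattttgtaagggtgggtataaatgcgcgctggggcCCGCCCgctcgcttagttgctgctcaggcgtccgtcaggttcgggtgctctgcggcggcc
Srsf3 promoter, chr17:29032410-29032709, plus strand: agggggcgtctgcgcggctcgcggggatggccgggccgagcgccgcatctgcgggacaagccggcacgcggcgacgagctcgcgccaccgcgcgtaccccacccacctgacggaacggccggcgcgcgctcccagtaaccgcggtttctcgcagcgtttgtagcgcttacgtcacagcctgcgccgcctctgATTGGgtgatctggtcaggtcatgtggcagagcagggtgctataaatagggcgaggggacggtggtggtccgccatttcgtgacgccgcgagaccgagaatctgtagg
Srsf7 promoter, chr17:80207256-80207555, minus strand: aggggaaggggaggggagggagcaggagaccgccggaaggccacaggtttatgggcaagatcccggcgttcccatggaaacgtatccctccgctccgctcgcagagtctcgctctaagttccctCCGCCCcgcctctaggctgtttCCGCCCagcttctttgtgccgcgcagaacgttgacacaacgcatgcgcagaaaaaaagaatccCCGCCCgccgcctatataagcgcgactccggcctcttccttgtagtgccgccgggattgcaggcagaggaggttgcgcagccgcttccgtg

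CCAAT was found in 4 of the 10 windows and in 37.9% of the 27025 promoter windows in the table. GGGCGG was found in 9 of 10 windows, all but that of Srsf3, against 35.9% of all windows. TATAAA, also searched on both strands and not capitalised, was found in 2 of 10, those of Srsf2 and Srsf3, against 14.2% of all windows. The windows of these genes were 56% to 77.7% G or C, where the median of all windows was 52.7%. A match is a string of letters and says nothing of binding.

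Bcl10 itself was listed at 16.4 and 16.6 FPKM in the Bcl10-/- libraries with IL-17A and at 0.969 and 17.0 FPKM in the unstimulated ones. In libraries labelled Bcl10+/- it was 16.3 and 18.0 FPKM in culture 1, with IL-17A and unstimulated, and 59.5 to 72.3 FPKM in cultures 2 and 3. The level in culture 1 labelled Bcl10+/- therefore goes against its label, and genotype names below are those of the labels. The values between genotypes that this culture moves are also given without it. Numbers in the library titles run 1 to 14 in 6 libraries, which are both Bcl10-/- cultures and this culture 1, and 33 to 38 in the other 4, so in cultures 2 and 3 the genotype cannot be told apart from the number set. The unstimulated library of Bcl10-/- culture 1, which had the lowest Bcl10, also had 12.6% of its FPKM in its top 10 genes, against 8.21% to 8.66% in the other 9. The log2 value of Bcl10, IL-17A minus unstimulated, was 3.14 within Bcl10-/- culture 1, against -0.14 to 0.11 within the other cultures. The libraries paired as Bcl10-/- culture 1 thus differ in Bcl10 itself. Keratinocyte markers summed to 8607 to 12290 FPKM, though Krt15, a basal keratin, was listed at 0 to 0.180 FPKM. Fibroblast markers summed to 36.9 and 37.0 FPKM in Bcl10-/- culture 2 and to 0.496 to 1.70 FPKM elsewhere, melanocyte markers to 172 to 202 FPKM in libraries 1 to 14 and 322 to 414 FPKM in libraries 33 to 38, immune markers to at most 0.0367 FPKM with Ptprc, Cd3e, Lyz2, Itgam, Cd207 and Tyrobp at 0, and endothelial markers to 4.42 to 6.04 FPKM with Emcn at 0. Depth, estimated from the steps of low values, was 15.9 to 50.8 M fragments a library, 48.6% to 55.1% of those values lying within 0.05 of a whole number of fragments against 10% for an even spread. A floor of 3 fragments in a gene of 1 kb is then 0.0591 to 0.188 FPKM (counting error only), far below every value of the 10 genes.

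On the FPKM scale, which is per transcript length, the SR genes ranged over more than an order of magnitude. The median level over the 10 libraries was highest for Srsf7 at 75.9 FPKM, followed by Srsf9 at 66.8, Srsf6 at 66.5, Srsf3 at 58.0, Srsf2 at 41.3, Srsf1 at 34.8, Srsf5 at 26.6, Srsf11 at 21.6, Srsf4 at 11.4 and Srsf10 at 7.52 FPKM. Neighbours in this order overlapped in their ranges over libraries, except Srsf5 and Srsf11. The level of Srsf1 varied most, with a coefficient of variation of 49.5% over the 10 libraries, and those of Srsf9 and Srsf6 least, at 6.75% and 6.90%. Summed over the 10 genes, the level was 399 and 420 FPKM in Bcl10-/- libraries with IL-17A, 443 and 484 FPKM unstimulated, 398 to 452 FPKM in Bcl10+/- libraries with IL-17A and 409 to 465 FPKM unstimulated. These bulk values cannot tell fewer cells of a type from less RNA per cell.

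**Figure D1:**
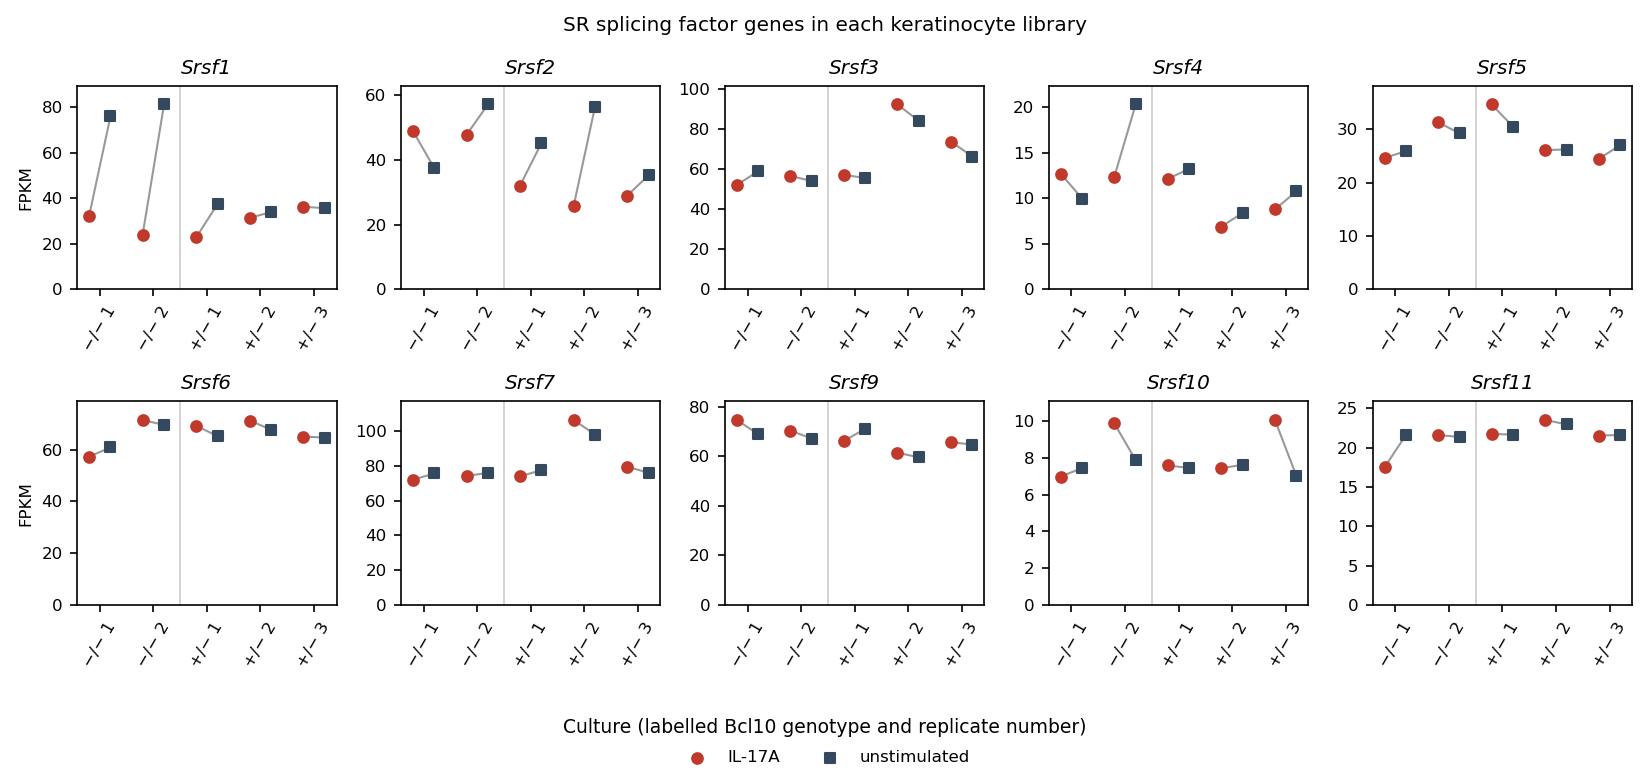
FPKM of each SR gene (y axis, from 0) in each culture (x axis, labelled Bcl10 genotype and number), with a circle for the IL-17A library, a square for the unstimulated library and a line joining the libraries of a culture. Srsf1 stands at 75.9 and 81.0 FPKM in the unstimulated Bcl10-/- libraries and at 22.8 to 37.5 FPKM in the other 8.

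Srsf1 (ENSMUSG00000018379, GRCm38 chromosome 11, 88047373 to 88053755, plus strand) encodes SF2/ASF, an exon-binding SR protein that also shuttles to the cytoplasm, and had a high level in a single group. It was 32.1 and 24.1 FPKM in Bcl10-/- cultures 1 and 2 with IL-17A, and 75.9 and 81.0 FPKM in the same cultures unstimulated. In Bcl10+/- cultures 1, 2 and 3 it was 22.8, 31.4 and 36.2 FPKM with IL-17A, and 37.5, 33.9 and 35.6 FPKM unstimulated. Both unstimulated Bcl10-/- libraries lay above the other 8 libraries, the Bcl10+/- libraries with IL-17A spanned the values of the Bcl10-/- libraries with IL-17A, and the unstimulated Bcl10+/- libraries lay just above the Bcl10-/- libraries with IL-17A. Group means were 28.1 ± 5.71 FPKM (SD, n = 2) in Bcl10-/- libraries with IL-17A, 78.5 ± 3.66 FPKM (SD, n = 2) in those unstimulated, 30.2 ± 6.80 FPKM (SD, n = 3) in Bcl10+/- libraries with IL-17A and 35.7 ± 1.81 FPKM (SD, n = 3) in those unstimulated. The antisense model Gm11508 overlaps the first 634 bases of Srsf1 and was listed at 0 to 0.00915 FPKM.

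With IL-17A, the log2 difference of Srsf1 in Bcl10-/- libraries was -1.46 (SE 0.21), a 0.363-fold level on the log2(FPKM + 1) scale, and -1.21 and -1.71 within cultures 1 and 2. Without the unstimulated library of culture 1 it was -1.51. This is the contrast that brought Srsf1 forward, and nothing is read from its counts. In it 0 of the 10 SR genes passed an adjusted p of 0.05, where 0.0249% of the tested genes did, and 1, Srsf1, had an unadjusted p under 0.05, where 1.46% did. The other 9 SR genes had log2 values between -0.18 for Srsf4 and 0.11 for Srsf10, and the median over the 10 was -0.04, against -0.0005 over all tested genes. The median size of the log2 value, sign aside, was 0.08 for the SR genes and 0.07 for all tested genes.

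**Figure D2:**
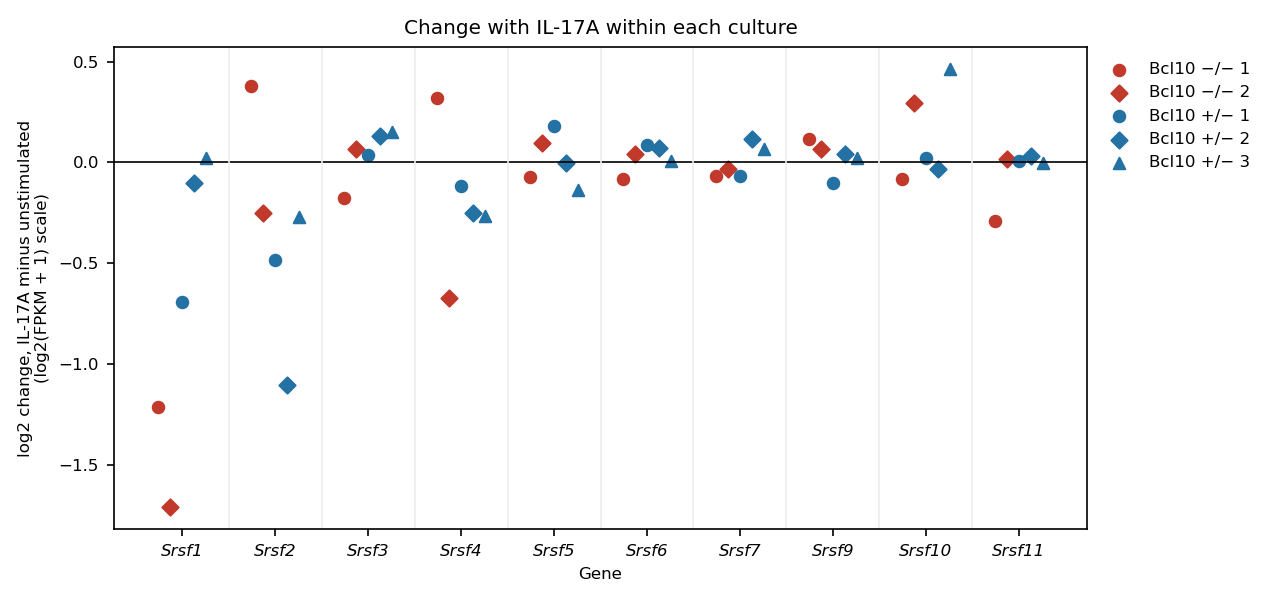
Log2 change with IL-17A (y axis, IL-17A minus unstimulated, log2(FPKM + 1) scale) of each SR gene (x axis) in each of the 5 cultures, with red symbols for Bcl10-/- and blue symbols for Bcl10+/-. Srsf1 is at -1.21 and -1.71 in the Bcl10-/- cultures and at -0.69, -0.10 and 0.02 in Bcl10+/- cultures 1, 2 and 3.

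In Bcl10+/- libraries no SR gene passed the test for IL-17A, in a fit whose spread was taken over all 10 libraries. As earlier results of these data were known, this comparison may not be independent of the choice of the family. The count was 0 of 10, where 0.0083% of tested genes passed, and 1 SR gene, Srsf2, had an unadjusted p under 0.05, where 1.34% of tested genes did. Srsf1 had a log2 value of -0.26 (SE 0.17, limma adjusted p = 1), which was -0.69, -0.10 and 0.02 within cultures 1, 2 and 3. With culture 1 left out it was -0.04 (SE 0.15, limma adjusted p = 1). In culture 1 alone, a single library in each condition with no spread of its own, it was -0.69. The value for the group thus came mostly from the culture whose Bcl10 level goes against its label. Over the 10 SR genes, 4 values were below 0 and 6 above, with a median of 0.01, against -0.01 over all tested genes.

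Srsf2 (ENSMUSG00000034120, chromosome 11, 116849901 to 116853094, minus strand) encodes SC35, a marker protein of nuclear speckles that stays mostly in the nucleus. It was 32.1, 25.7 and 29.0 FPKM in Bcl10+/- cultures 1, 2 and 3 with IL-17A, and 45.2, 56.4 and 35.2 FPKM unstimulated. Every unstimulated library was above every IL-17A library, and the within-culture log2 values were -0.48, -1.10 and -0.27. The log2 difference was -0.62 (SE 0.20) with a limma adjusted p of 1, so it did not pass. Over 11 of the alternatives tried it lay between -0.79 and -0.46. In Bcl10-/- cultures 1 and 2, Srsf2 was 48.9 and 47.7 FPKM with IL-17A, and 37.4 and 57.1 FPKM unstimulated, so those groups overlapped, and the within-culture log2 values had opposite signs, 0.38 and -0.25.

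Srsf2 shares its locus with Mettl23, which spans all 3194 bases of it on the opposite strand, and with Mfsd11, which overlaps 655 bases. Mettl23 was listed at 3.12 to 7.26 FPKM and Mfsd11 at 1.96 to 4.20 FPKM, lower than Srsf2 in every library. No source states whether the counting used strand, so reads of Srsf2 and of these neighbours cannot be told apart where they overlap.

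Between genotypes without stimulation, Srsf1 was 75.9 and 81.0 FPKM in Bcl10-/- libraries, against 37.5, 33.9 and 35.6 FPKM in Bcl10+/- libraries. The log2 difference was 1.12 (SE 0.19), a 2.17-fold level, and it was 1.15 without Bcl10+/- culture 1 and 1.04 against culture 1 alone, within libraries 1 to 14. Without the unstimulated library of Bcl10-/- culture 1 it was 1.16. The groups overlapped in none of these comparisons. These unstimulated Bcl10-/- libraries are those that chose Srsf1, so the difference is a description. The count of SR genes that passed was 0 of 10, where 0% of tested genes did, and 1, Srsf1, had an unadjusted p under 0.05, where 4.66% did. Without Bcl10+/- culture 1 the count was 1 of 10, Srsf1, among 126 of all 12054 tested genes, which is no independent support for Srsf1.

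None of the other 9 SR genes passed between unstimulated genotypes. Their log2 values ran between -0.26 (SE 0.21) for Srsf3 and 0.39 (SE 0.30) for Srsf4, with adjusted p-values of at least 0.728 by limma. Without Bcl10+/- culture 1 they ran between -0.40 for Srsf3 (limma adjusted p = 0.175) and 0.54 for Srsf4 (limma adjusted p = 0.276), and within libraries 1 to 14 Srsf3 was at 0.02 and Srsf4 at 0.10. Srsf4 (chromosome 4, 131873617 to 131901706), known as SRp75, was 9.97 and 20.3 FPKM in Bcl10-/- libraries and 13.2, 8.42 and 10.8 FPKM in Bcl10+/- libraries, which overlap. Its high value of 20.3 FPKM came from the library of Bcl10-/- culture 2, in which the opposite-strand model Gm12992, overlapping 2229 bases of Srsf4, was listed at 0.0297 FPKM, against 3.57 to 4.65 FPKM in the other 9. Whether reads passed between these models was not tested.

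With IL-17A, the genotypes overlapped in Srsf1, at 32.1 and 24.1 FPKM in Bcl10-/- libraries and 22.8, 31.4 and 36.2 FPKM in Bcl10+/- libraries, a log2 difference of -0.09 (SE 0.19). That of Srsf1 was -0.27 without Bcl10+/- culture 1 and 0.28 within libraries 1 to 14, so its sign depends on the libraries used. Srsf2 was 48.9 and 47.7 FPKM in Bcl10-/- libraries, against 32.1, 25.7 and 29.0 FPKM in Bcl10+/- libraries, with no overlap. Its log2 difference was 0.73 (SE 0.22) with a limma adjusted p of 0.507, so it did not pass. Without Bcl10+/- culture 1 it was 0.80 (adjusted p = 0.0809, limma). Within libraries 1 to 14, which hold a single Bcl10+/- library with IL-17A, it was 0.58. The count that passed was 0 of 10, where 0.0249% of tested genes did, and 1 of 10, Srsf2, had an unadjusted p under 0.05, where 8.14% did. In both conditions fibroblast markers were higher in Bcl10-/- culture 2 alone, and melanocyte markers in Bcl10+/- cultures 2 and 3 but not in Bcl10+/- culture 1. The part of these markers in the result was not tested.

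**Figure D3:**
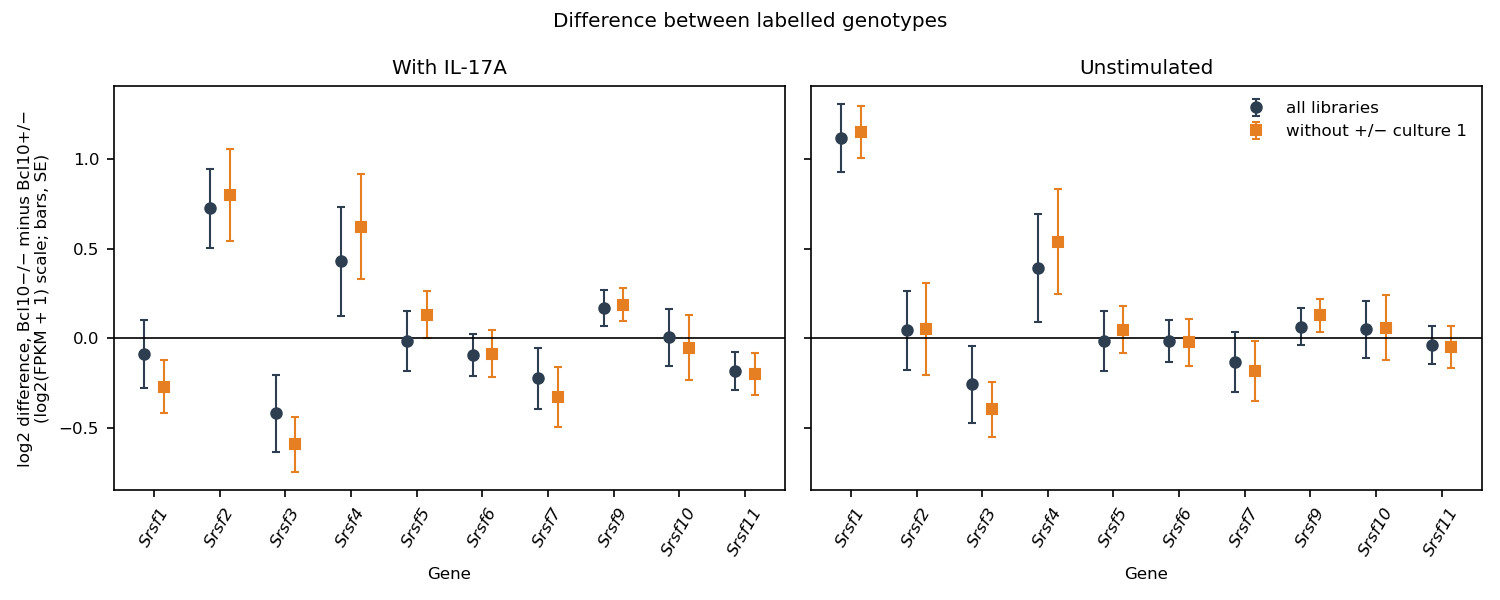
Log2 difference between labelled genotypes (y axis, Bcl10-/- minus Bcl10+/-, log2(FPKM + 1) scale, bars the standard error) of each SR gene (x axis), with IL-17A on the left and unstimulated on the right, over all libraries (circles) and without Bcl10+/- culture 1 (squares). Srsf1 unstimulated is at 1.12 and 1.15, and Srsf3 with IL-17A at -0.42 and -0.59.

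Srsf3 (SRp20), a short SR protein, and Srsf7 (9G8), which has a zinc knuckle, both shuttle and act as adaptors for mRNA export. Srsf3 (chromosome 17, 29032628 to 29043373) was 52.1 and 56.6 FPKM in Bcl10-/- libraries with IL-17A, against 57.0, 92.1 and 73.6 FPKM in Bcl10+/- libraries with IL-17A. Unstimulated it was 58.9 and 54.0 FPKM in Bcl10-/- libraries, against 55.5, 83.9 and 66.2 FPKM in Bcl10+/- libraries. The 4 high values all belong to Bcl10+/- cultures 2 and 3: libraries 33 to 38 lay at 66.2 to 92.1 FPKM and libraries 1 to 14 at 52.1 to 58.9 FPKM, without overlap. The genotype difference with IL-17A was -0.42 (SE 0.21, limma adjusted p = 0.507), and -0.59 without Bcl10+/- culture 1 (limma adjusted p = 0.0568). Within libraries 1 to 14 it was -0.07 with IL-17A and 0.02 unstimulated. For Srsf3 the numbering and the genotype therefore cannot be told apart.

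Srsf7 (chromosome 17, 80200080 to 80207307) followed Srsf3 over the libraries, with a Pearson r of 0.92 over 10 libraries of 5 cultures. It was 72.0 and 74.1 FPKM in Bcl10-/- libraries with IL-17A, against 74.0, 106 and 79.4 FPKM in Bcl10+/- libraries. Unstimulated it was 75.6 and 75.9 FPKM in Bcl10-/- libraries, against 77.4, 97.9 and 75.9 FPKM in Bcl10+/- libraries. Only the libraries of Bcl10+/- culture 2 stood clear of the rest. Srsf9 (SRp30c) ran opposite to Srsf3, with an r of -0.87, and lay at 59.7 to 65.8 FPKM in libraries 33 to 38 and at 66.3 to 74.8 FPKM in libraries 1 to 14. Srsf4 and Srsf3 had an r of -0.84. These correlations describe libraries that share cultures and number sets.

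The remaining members are described by their range over all libraries. Srsf5 (SRp40), known for insulin-regulated splicing, lay between 24.5 and 34.6 FPKM, and Srsf6 (SRp55), whose excess causes hyperplasia of mouse skin, between 57.3 and 71.5 FPKM. Srsf11 (p54), a distant family member with a part in microexon splicing, lay between 17.5 and 23.5 FPKM, its lowest value in Bcl10-/- culture 1 with IL-17A. Srsf10 (SRp38), which becomes a splicing repressor when dephosphorylated in mitosis or heat shock, lay between 6.98 and 10.1 FPKM. Its 2 highest values, 9.88 and 10.1 FPKM, were the IL-17A libraries of Bcl10-/- culture 2 and Bcl10+/- culture 3, while in the other 3 cultures the within-culture log2 values were -0.08, 0.02 and -0.03. None of these 4 genes passed in any of the 6 comparisons.

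The response to IL-17A in Bcl10-/- minus that in Bcl10+/- libraries was -1.20 (SE 0.27) for Srsf1, and 0.68 (SE 0.31, limma adjusted p = 1.00) for Srsf2. For Srsf1 it was -1.42 without Bcl10+/- culture 1 and -0.77 within libraries 1 to 14, given as a description. For Srsf2 it was 0.75 without Bcl10+/- culture 1 and 0.54 within libraries 1 to 14. The count that passed was 0 of 10, where 0% of tested genes did, and 1 had an unadjusted p under 0.05, Srsf1, where 1.19% of tested genes did. Averaged over the 5 cultures, with culture as a block, the IL-17A effect was -0.74 (SE 0.26) for Srsf1, below 0 in 4 of 5 cultures, and -0.35 (SE 0.19, limma adjusted p = 0.892) for Srsf2, also below 0 in 4 of 5. There 0 of 10 SR genes passed, where 0.149% of tested genes did, and 1, Srsf1, had an unadjusted p under 0.05, where 6.03% did. Those comparisons share the Bcl10-/- libraries that brought Srsf1 forward.

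Beside the SR family stood 8 lists of other RNA-processing genes, with 129 different tested genes in all. In both IL-17A comparisons within a genotype 0 of these passed by limma, and 1 (0.775%), Zc3h12a, had an unadjusted p under 0.05 in each. Of all tested genes, 0.0249% passed in Bcl10-/- and 0.0083% in Bcl10+/- libraries, and 1.46% and 1.34% had an unadjusted p under 0.05. A count of 0 in lists of this size is near that share, here and for each list below, and is not read as a lack of response. Between genotypes 0 passed in either condition, where 0.0249% of all tested genes did with IL-17A and 0% unstimulated. An unadjusted p under 0.05 was found with IL-17A in 4 of them (3.1%), where 8.14% of all tested genes had one, and unstimulated in 3 (2.33%), where 4.66% of all tested genes had one. Among other SR and SR-related proteins 0 of 19 tested genes passed in either genotype, with medians of -0.04 in Bcl10-/- and -0.01 in Bcl10+/- libraries. Tra2b, an SR-like activator of exons, had log2 values of 0.01 in Bcl10-/- and 0.02 in Bcl10+/- libraries, and Scaf1 and Tra2a had 0.12 and -0.11 in Bcl10-/- libraries. Among 12 kinases and phosphatases of SR proteins 0 passed in either genotype. Srpk1 had log2 values of -0.04 in Bcl10-/- and -0.02 in Bcl10+/- libraries, Clk1 -0.03 and 0.12, and in Bcl10-/- libraries Clk2 had 0.10 and Clk4 -0.10.

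Of 12 genes of SR protein transport and mRNA export 0 passed in either genotype, with Thoc2 and Thoc1, subunits of the THO export complex, at -0.36 and -0.15 in Bcl10-/- libraries. Of 22 heterogeneous nuclear ribonucleoproteins, many of which oppose SR proteins at exons, 0 passed in either genotype. Hnrnpa3 had the widest log2 values, 0.95 (SE 0.80) in Bcl10-/- and -1.39 (SE 0.66) in Bcl10+/- libraries. Its level was 5.17 and 3.72 FPKM in Bcl10-/- libraries with IL-17A, 0.950 and 2.99 FPKM in those unstimulated, 4.28, 1.93 and 2.79 FPKM in Bcl10+/- libraries with IL-17A, and 18.8, 2.00 and 16.7 FPKM in those unstimulated. A pair of unstimulated Bcl10+/- libraries thus stood far above the rest, and how its reads were shared with near-identical copies is not given. Syncrip had -0.36 in Bcl10-/- libraries.

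Core spliceosome genes (0 of 24), epithelial and tissue splicing regulators (0 of 15) and nonsense-mediated decay factors (0 of 15) had no member that passed with IL-17A in either genotype. In Bcl10-/- libraries the widest log2 values were 0.19 for Snrpg and 0.16 for Snrpd2, both of the Sm ring, -0.22 for Mbnl1 and -0.17 for Esrp1, the epithelial splicing regulator, and -0.10 for Upf3b and 0.09 for Upf3a. Of 12 tested genes in IL-17 control of mRNA stability, 0 passed within a genotype. In the effect averaged over cultures, where 0.149% of all tested genes passed, 1 did. That gene was Zc3h12a, the endoribonuclease Regnase-1, at 21.4 and 21.4 FPKM in Bcl10-/- libraries with IL-17A, 6.25 and 8.12 FPKM in those unstimulated, 20.9, 21.5 and 28.0 FPKM in Bcl10+/- libraries with IL-17A, and 6.06, 9.95 and 13.1 FPKM in those unstimulated. It rose by 1.33 (SE 0.11, limma adjusted p = 0.0134), higher in 5 of 5 cultures; without Bcl10-/- culture 2 no gene passed in that comparison. Traf3ip2, which encodes the IL-17 receptor adaptor Act1, had 0.19 in Bcl10-/- libraries.

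**Figure D4:**
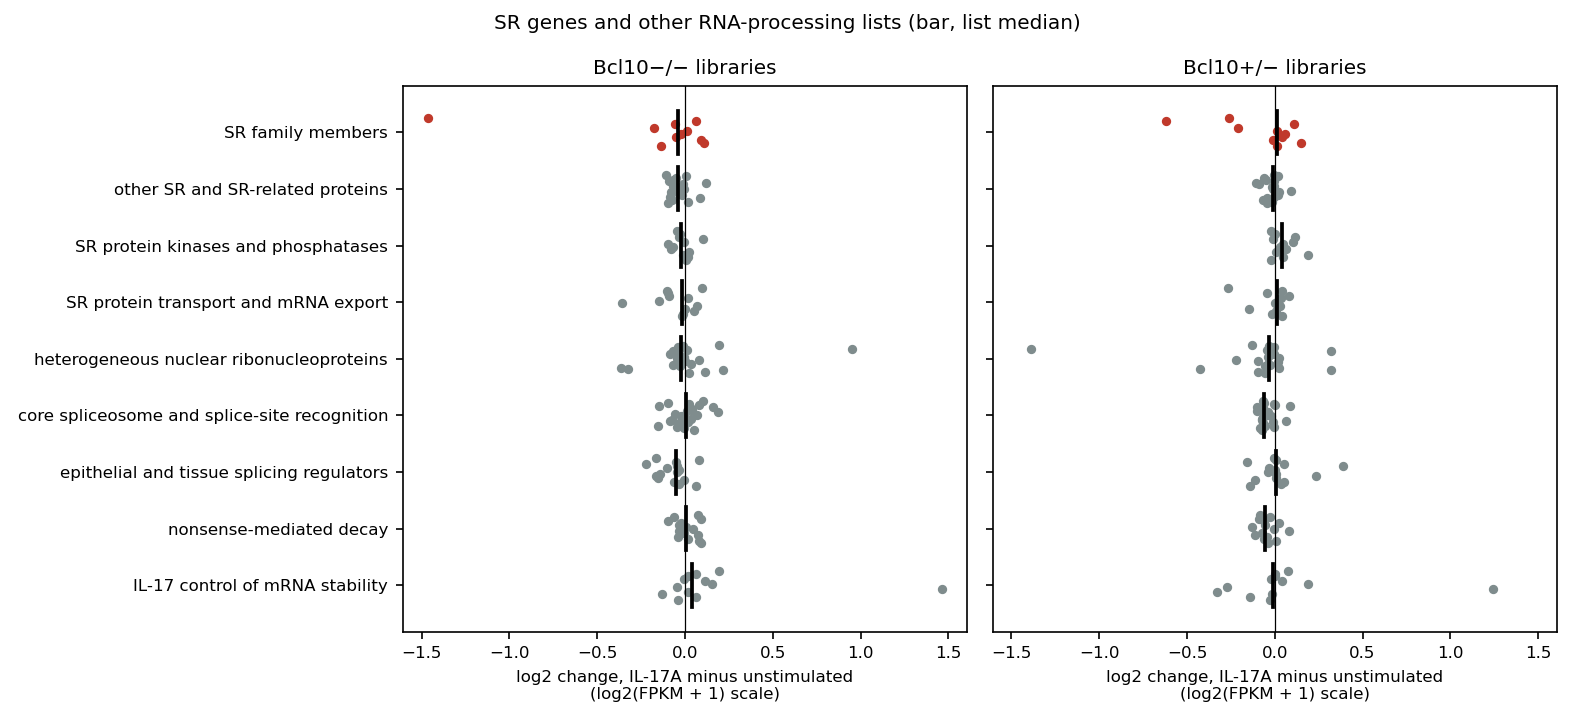
Log2 change with IL-17A (x axis, IL-17A minus unstimulated, log2(FPKM + 1) scale) of each tested gene (points) of the SR family, in red, and of the other RNA-processing lists, in grey, with Bcl10-/- libraries on the left and Bcl10+/- libraries on the right and a bar at each list median. The median of the SR family is -0.04 in Bcl10-/- and 0.01 in Bcl10+/- libraries, with Srsf1 at -1.46 and Srsf2 at -0.62 as its lowest points.

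Profiles over the 10 libraries were compared with that of Srsf1 among the tested genes with a symbol, the other SR genes left out. Most like it were Mutyh (Pearson r = 0.84), a DNA glycosylase, Bnipl (0.83) and Erap1 (0.83), an aminopeptidase that trims peptides for MHC class I. Next came Cdc14b (0.82), a phosphatase, and Tut4 (0.82), a terminal uridylyl transferase. Cdc14b, for instance, was 3.67 and 3.72 FPKM in Bcl10-/- libraries with IL-17A, 5.79 and 5.61 FPKM in those unstimulated, and 3.11 to 4.15 FPKM in the 6 Bcl10+/- libraries. The most opposite were Lipt1 (-0.91), a lipoyl transferase, Gm13772 (-0.86) and the cornified envelope gene Lce3f (-0.84). Lipt1 was 2.12 and 2.16 FPKM in Bcl10-/- libraries with IL-17A, 0.848 and 1.02 FPKM in those unstimulated, and 1.34 to 2.02 FPKM in Bcl10+/- libraries. The r values rest on 10 libraries of 5 cultures, with Srsf1 high in 2 of them, and carry no p-value.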

How the data were processed

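FPKM values for 37991 Ensembl identifiers in 10 libraries were made by the authors and deposited as a single table. Per the submitters' processing notes, HISAT2, SAMtools, StringTie and DESeq2 were used with the mm10 build; for their versions, the strand setting and the annotation release, the sources used here give nothing. Per the labels' protocols, 100 ng of total RNA was poly(A) selected. A count model was not used, as FPKM values are not counts. Identifiers were matched to symbols with GENCODE M21 (GRCm38), 32919 of them.

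Genes averaging 1 FPKM or more were tested on log2(FPKM + 1) with limma 3.58.1 in R 4.3.3, with its mean-variance trend and a mean for each of 4 groups. Tests were two-sided and adjusted by Benjamini-Hochberg over 12054 genes, with a threshold of 0.05, in 6 comparisons; the averaged IL-17A effect had culture as a fixed block. Folds are on the log2(FPKM + 1) scale and understate changes of low genes.

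Deviations from group means of same-numbered libraries correlated at 0.227 in Bcl10-/- cultures and at 0.607, 0.488 and 0.137 in Bcl10+/- cultures 1, 2 and 3, against -0.155 to 0.0476 across genotypes. The value is the same for both Bcl10-/- cultures because deviations in groups of 2 mirror each other. Different numbers within a genotype were not correlated, so these values do not settle the pairing. Pairing libraries by number within a genotype, and not across genotypes, was therefore an assumption.

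The members, the 14 gene lists and the tests were chosen with earlier results of these data known. Outside the members, a list gene was named where it passed a test or had one of the 2 widest changes of its list with IL-17A in Bcl10-/- libraries, besides Tra2b, Clk1 and Srpk1. Of the tested genes with a symbol outside the family, the 5 most like and the 3 least like Srsf1 were also named. The cell type markers served to check the cultures.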

Additional observations from a re-analysis of the deposited data

How the results depend on the processing

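The alternatives were a pseudocount of 0.1, no filter or one at 5 FPKM, scaling by TPM or by median of ratios, library weights (gene-by-gene method), no trend, each library left out, Bcl10+/- culture 1 left out, only libraries 1 to 14, only the groups compared, and culture as a replicate block; leaving out Bcl10-/- culture 1 was added after seeing the data. The count of SR genes that passed was 0 in all 6 comparisons and under each alternative run, with these exceptions, all of them Srsf1. For IL-17A in Bcl10-/- libraries it was 1 with library weights and 1 with culture as a random replicate block (paired), against 0 with culture as a fixed replicate block, and ran from 0 to 1 with each library left out in turn, reaching 1 without the IL-17A library of Bcl10+/- culture 1. For Bcl10-/- against Bcl10+/- unstimulated it was 1 with library weights and 1 without both libraries of Bcl10+/- culture 1. Srsf1 was chosen on Bcl10-/- libraries that both comparisons use, so these passes are no independent support for it. In the first of these comparisons 14 of 12054 tested genes passed with the random replicate block, the most under any alternative. In the second 646 of 12054 passed with library weights, also the most under any alternative. The causes were not tested. Log2 values of SR genes were compared with the reported ones under only part of these alternatives. Of 640 such values, 598 were within 1 SD of the reported value and 42 were beyond it.

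The number of genes called in the whole table was less stable. For IL-17A it was 3 in Bcl10-/- libraries (0 to 14 over alternatives, highest with the random replicate block) and 1 in Bcl10+/- libraries (0 to 128, highest with library weights). Between genotypes it was 0 unstimulated (0 to 646, highest with library weights) and 3 with IL-17A (0 to 808, highest without both libraries of Bcl10+/- culture 1). It was 0 for the difference in response (0 to 6) and 18 for the averaged effect (0 to 31, and 6 with no replicate block). Every FPKM value of the 10 SR genes lies above the floor of 3 fragments.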
